A study of Mus musculus with 6 samples.

Results

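Microglia with low Ccl3 and Ccl4 were cell barcodes that carried microglia marker transcripts while 2 chemokine genes made up little of their RNA. A barcode was kept when it had at least 400 detected genes and under 10% of its UMIs (unique molecular identifiers, counts of captured mRNA molecules) from mitochondrially encoded genes. It was called microglial when P2ry12, Tmem119, Siglech, Sall1, Gpr34, Fcrls, Olfml3 and Slc2a5 together gave at least 3 UMIs, and low when Ccl3 plus Ccl4 were under 0.5% of its UMIs. This gave 595 low barcodes of 1254 microglial barcodes, of 2083 kept and 6000 deposited barcodes. The other 659 microglial barcodes are called chemokine-high here. Levels of Ccl3, Ccl4 and the 8 markers chose the members, so the members were chosen by measured values, and these are described below without a test.

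Microglia are the resident macrophages of the brain parenchyma, and P2ry12, a purinergic receptor, and Tmem119, a transmembrane protein, are among the genes that set them apart from blood-derived macrophages. Ccl3 and Ccl4 encode secreted chemokines that attract leukocytes and are induced in macrophages by inflammatory signals, among them those that pass through the transcription factor NF-kB. Both chemokine genes and immediate-early genes are also known to be induced in microglia when tissue is dissociated with enzymes, a step that all 6 suspensions shared. The part of that step in these levels was not tested.

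The data were Drop-seq libraries, in which droplets pair single cells with barcoded beads, made from Cd11b-enriched brain suspensions of female mice 2 to 3 months old. The metastasis group had 2 libraries of 1 C57BL/6 brain each, taken 2 to 3 weeks after cells of E0771, a mammary carcinoma line of mice, were injected into the heart. Cx3cr1-/- and Cx3cr1+/- mice bearing the same metastases gave 1 library each, and each of these pooled 2 brains. The naive group had 2 libraries of 1 C57BL/6 brain each, without injected cells. Replicate 1 of the metastasis and naive groups was sequenced on a HiSeq 2500 and the other 4 libraries on a NextSeq 500. How the Cx3cr1 alleles were made is not given in the sources used here. In the names of the deposited tables the 4 libraries from unmodified mice stand under the opposite group to their sample labels, and the labels were followed throughout.

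The libraries held 491621 to 2667099 UMIs over 1000 deposited barcodes each. Kept barcodes numbered 990 and 81 in the metastasis libraries, 160 in the Cx3cr1-/- library, 251 in the Cx3cr1+/- library, and 420 and 181 in the naive libraries. No microglial barcode sequence was shared between libraries. Low barcodes summed to 2095541 UMIs and chemokine-high barcodes to 2277145 UMIs. The median depth of a low barcode was 2390 and 935 UMIs in metastasis replicates 1 and 2, 3475 in Cx3cr1-/-, 4266 in Cx3cr1+/-, and 1201 and 2977 in naive replicates 1 and 2. In chemokine-high barcodes the median depth was 2070.5 and 3249 in metastasis, 3192 in Cx3cr1-/-, 4196 in Cx3cr1+/-, and 1667 and 3326 in naive. Cx3cr1 itself, the fractalkine receptor of microglia, had 46.4 CPM in low barcodes of the Cx3cr1-/- library, against 1176 in those of the Cx3cr1+/- library. It had 223 and 4788 CPM in the metastasis libraries and 4640 and 1174 in the naive libraries. Ccl3 and Ccl4 were left out of the totals behind all CPM values, which are UMI counts scaled to a common total.

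The members were checked against microglia markers, and in 1 library most of them went against the name. In other libraries a part of them was poor in markers, as given further below. In metastasis replicate 1 the 8 markers made up 0.0730% of all UMIs of low barcodes, against 0.383% to 1.10% in the other 5 libraries. There, 37 of 61 low barcodes had exactly 3 marker UMIs, the fewest the rule allows, from a median of 2 of the 8 genes. Carcinoma markers (Rhox5, keratins and others) reached 1691 CPM in those 61 barcodes, against 489 in chemokine-high barcodes of that library and 0 to 51.4 in low barcodes of the others. P2ry12 had 176 and 2984 CPM in low barcodes of metastasis replicates 1 and 2, 1724 in Cx3cr1-/-, 1380 in Cx3cr1+/-, and 2306 and 851 in naive replicates 1 and 2. In metastasis replicate 1 the members are therefore called low barcodes by the rule, and the main comparisons below are also given without it or with a marker minimum.

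Markers of blood vessel cells were the second departure. Of all low barcodes, 51 had 3 or more UMIs of endothelial or mural (vessel wall) markers, and these 51 held 92.3% of the 2640 vascular UMIs in the state. They were 26 of 109 low barcodes in Cx3cr1+/-, 15 of 73 in naive replicate 2, 9 of 113 in Cx3cr1-/- and 1 of 61 in metastasis replicate 1, with none in metastasis replicate 2 and naive replicate 1. Such barcodes were 8.57% of low microglia, against 44 of 659 (6.68%) of chemokine-high microglia, where these 44 held 62.5% of 435 vascular UMIs and 26 of 122 barcodes in Cx3cr1+/- were among them. Markers were under 0.2% of UMIs in 95 of 595 low barcodes and in 79 of 659 chemokine-high barcodes. Metastasis replicate 1 held 38 of the 95, Cx3cr1+/- 23, naive replicate 2 18 and Cx3cr1-/- 14. These were 62.3%, 21.1%, 24.7% and 12.4% of their low barcodes, against 35.8%, 4.92%, 6.25% and 2.5% of their chemokine-high barcodes. In metastasis replicate 2 and naive replicate 1 they were 0% and 1.07% of low barcodes, against 4.55% and 1.37%.

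**Figure D1:**
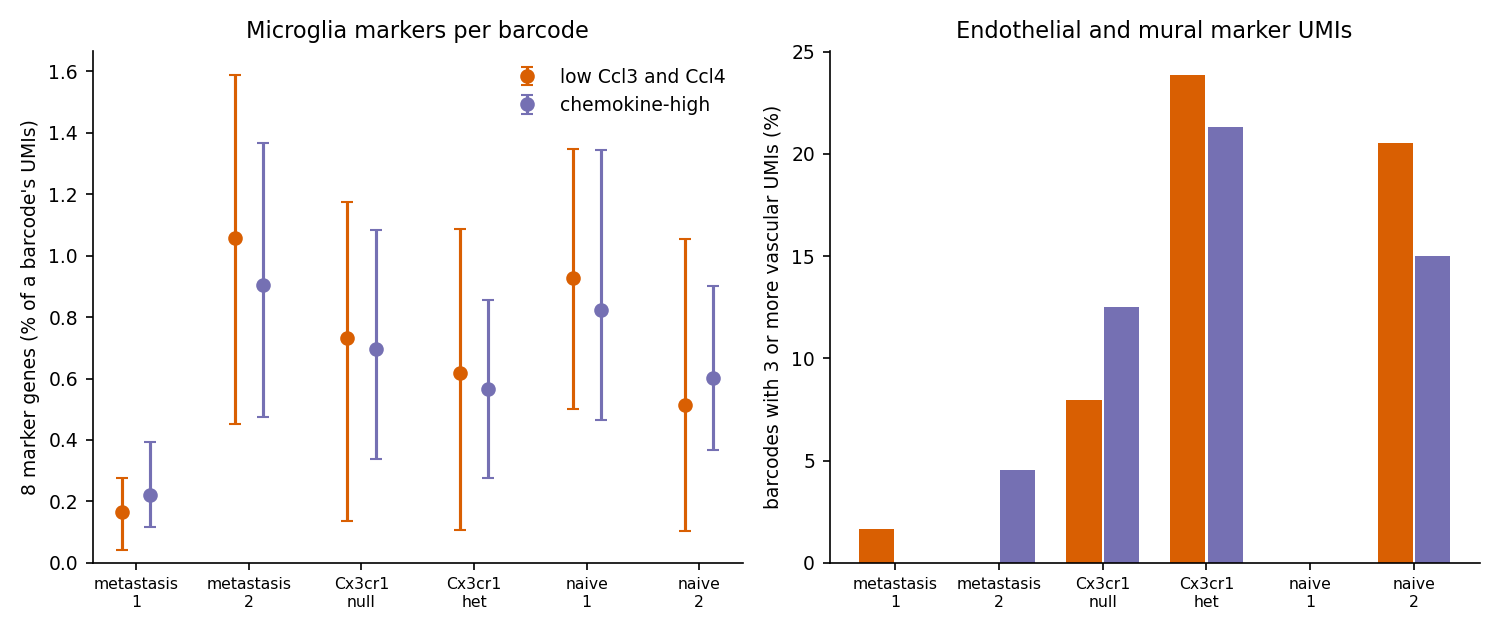
Left, share of a barcode's UMIs from the 8 marker genes (median, with bars from the 10th to the 90th percentile over barcodes) in low and chemokine-high barcodes of each library. Right, share of barcodes with 3 or more endothelial or mural UMIs. Metastasis replicate 1 lies lowest in markers, and barcodes with 3 or more vascular UMIs occur mainly in Cx3cr1-/-, Cx3cr1+/- and naive replicate 2, where they are 9 of 113, 26 of 109 and 15 of 73 low barcodes.

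The low state made up 25.7% of microglial barcodes in metastasis replicate 1 (exact binomial 95% interval 20.3 to 31.8, n = 237) and 70.3% in metastasis replicate 2 (58.5 to 80.3, n = 74). It made up 73.9% in Cx3cr1-/- (66.1 to 80.6, n = 153) and 47.2% in Cx3cr1+/- (40.6 to 53.8, n = 231). In the naive libraries it made up 46.1% (41.1 to 51.0, n = 406) and 47.7% (39.6 to 55.9, n = 153). The 2 metastasis libraries thus lay on either side of the 2 naive libraries. The share of metastasis replicate 1 depended on the marker minimum. It was 16.9% (23 of 136) with markers at 0.2% or more of UMIs and 5.5% (6 of 109) with at least 5 marker UMIs. Metastasis replicate 2 stood at 71.2% and 68.1% in these settings. With at least 600 detected genes it stood at 56.4% (22 of 39, 39.6 to 72.2), and metastasis replicate 1 at 25.7%. The other libraries then stood at 75.0% in Cx3cr1-/-, 47.7% in Cx3cr1+/-, and 42.6% and 49.0% in naive. With a limit of 0.2% in place of 0.5%, the shares were 9.7% and 43.2% in metastasis, 45.8% in Cx3cr1-/-, 25.5% in Cx3cr1+/-, and 12.8% and 30.1% in naive. With a limit of 1% they were 48.9% and 83.8%, 88.9%, 68.8%, and 74.4% and 69.3%. Intervals here and below cover counting error only, and with 1 library the Cx3cr1 genotypes have no replicate check. After every barcode with at least 800 UMIs was drawn down to 800, the shares were 24.1% and 60.8% in metastasis, 70.9% in Cx3cr1-/-, 43.1% in Cx3cr1+/-, and 38.0% and 46.6% in naive. Before thinning, the same barcodes gave 25.7% and 66.7%, 75.0%, 48.0%, and 45.5% and 48.0%.

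Within each library the state was one end of a continuous range. The median Ccl3 plus Ccl4 share of a low barcode was 0.263% and 0.146% in metastasis, 0.140% in Cx3cr1-/-, 0.193% in Cx3cr1+/-, and 0.278% and 0.150% in naive. In chemokine-high barcodes the medians were 1.33% and 1.10%, 0.923%, 1.25%, and 0.966% and 1.14%, and the highest barcode reached 6.90%. Summed over a library, Ccl3 had 670.1 to 1074 CPM in low barcodes against 4410.2 to 6924 in chemokine-high barcodes, and Ccl4 had 586 to 1667 against 7507 to 10615. Only 34 low barcodes had no UMI of either gene, 13 of them in metastasis replicate 2, the library with the shallowest low barcodes. The exact 95% interval of a barcode's own share covered 0.5% in 311 of 595 low barcodes (52.3%) and in 205 of 659 chemokine-high barcodes (31.1%), so their side of the limit is within counting error. After thinning, 90.4% of 1141 barcodes kept their state. The low barcode nearest the limit had 6 of 1201 UMIs (in naive replicate 1) and the nearest chemokine-high barcode 11 of 2186 (in Cx3cr1-/-).

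**Figure D2:**
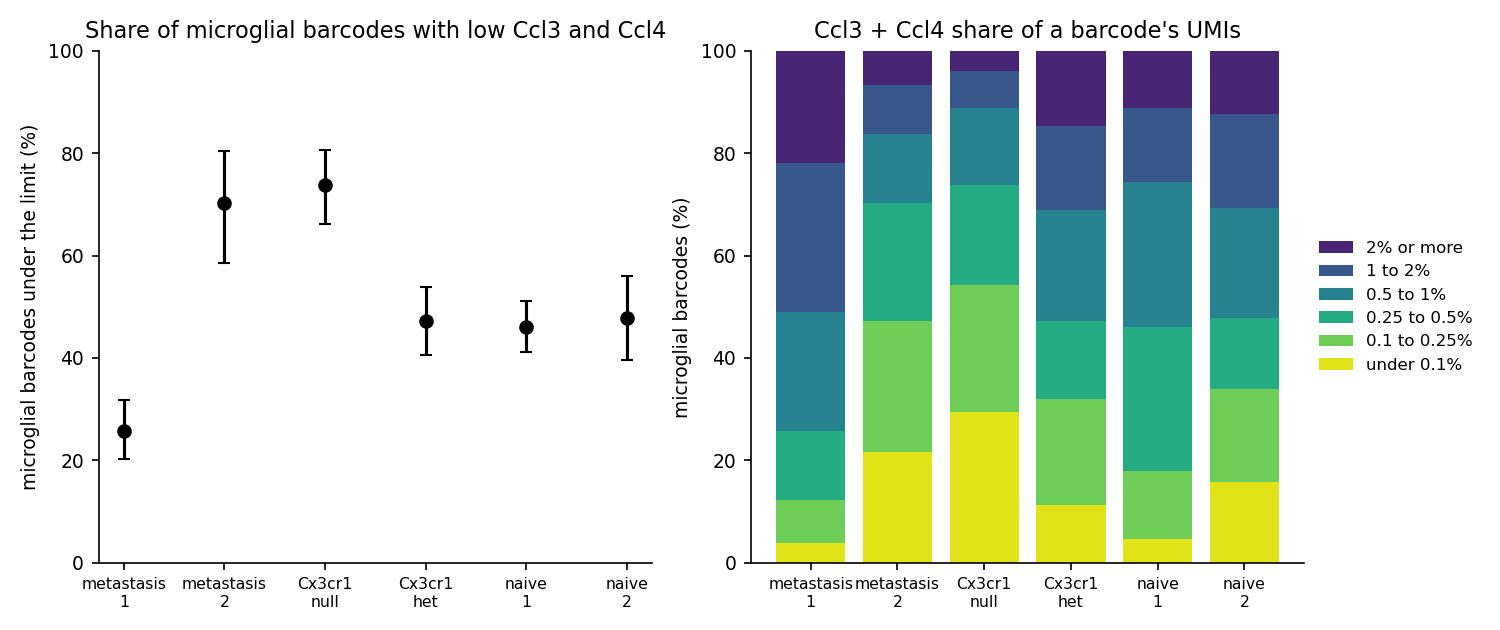
Left, share of microglial barcodes with low Ccl3 and Ccl4 in each library with its exact binomial 95% interval. Right, microglial barcodes of each library by their Ccl3 plus Ccl4 share of UMIs. The low share is 25.7% and 70.3% in the metastasis libraries and 46.1% and 47.7% in the naive libraries, and the shares pass through the 0.5% limit without a gap.

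Compared with chemokine-high barcodes of the same library, low barcodes had less of 22 genes, among them Csf1, Tnf and Ccl12. They had more of 55 genes, among them vascular genes. Without the barcodes of 3 or more vascular UMIs, 6 of these 22 and 2 of these 55 passed the test again. UMIs were summed per library and state and tested with edgeR's quasi-likelihood test with the library as a block, over 6 libraries. Of 7448 genes tested, 77 (1.03%) passed, 22 lower in the low state (0.295%) and 55 higher (0.738%), at a Benjamini-Hochberg adjusted p under 0.05. The 22 lower genes included the cytokines Tnf, Il1a, Il10 and Csf1 and the NF-kB regulators Nfkbiz and Nfkbid, and 19 of them were lower in all 6 libraries. Over all genes tested, 3.26% were lower in all 6. Of the 55 higher genes 2 were higher in all 6, against 1.99% of all genes. The median change over all genes was 0.01 on the log2 scale. The total of 77 calls depended on single libraries: it was 8 without Cx3cr1+/-, 16 without naive replicate 2, 42 without Cx3cr1-/-, 52 without metastasis replicate 2 and 130 without metastasis replicate 1. Labels number the replicates but each is 1 suspension. With the library as a block, p-values set the low-minus-high change against its variation between these 6 libraries.

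Csf1, the growth factor that acts on the microglial survival receptor Csf1r, had the smallest adjusted p among the lower genes. It had 83 and 43.7 CPM in low barcodes of the metastasis libraries, 55.3 in Cx3cr1-/-, 88.1 in Cx3cr1+/-, and 46.3 and 101 in naive. In chemokine-high barcodes it had 276 and 84.3 in metastasis, 215 in Cx3cr1-/-, 383 in Cx3cr1+/-, and 160 and 366 in naive. Every library had the lower level in its low barcodes, and the log2 change was -1.85 (SE 0.19, adjusted p = 0.000159). It passed the test in 21 of 23 alternative settings, among them all 6 that leave out 1 library.

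Tnf, the cytokine tumour necrosis factor, had 172 and 295 CPM in low barcodes of the metastasis libraries, 466 in Cx3cr1-/-, 484 in Cx3cr1+/-, and 454 and 271 in naive. In chemokine-high barcodes it had 1142 and 422, 1217, 1378, and 891 and 1176 in the same order of libraries. The groups overlapped only through metastasis replicate 2, whose chemokine-high barcodes had less Tnf than the low barcodes of 3 other libraries. The log2 change was -1.58 (SE 0.24, adjusted p = 0.00222), and it also passed in 21 of 23 settings.

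Ccl12, a chemokine that attracts monocytes through Ccr2, had 147 and 131 CPM in low barcodes of metastasis, 619 in Cx3cr1-/-, 596 in Cx3cr1+/-, and 414 and 197 in naive. In chemokine-high barcodes it had 1136 and 470, 2304, 786, and 513 and 681. The difference was widest in metastasis replicate 1 and in Cx3cr1-/- and narrowest in naive replicate 1, and the log2 change was -1.48 (SE 0.29, adjusted p = 0.0168). It passed in 18 of 23 settings but in only 3 of the 6 that leave out 1 library, where its adjusted p reached 0.0876.

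The other 7 named lower genes had smaller changes. Tlr2, a receptor for bacterial lipoproteins, had 87.4 to 252 CPM in low barcodes (median 120), against 184 to 479 in chemokine-high barcodes (median 344), a log2 change of -1.19 (SE 0.22, adjusted p = 0.0131). Il1a, the cytokine interleukin 1 alpha, had 92.5 to 776 (median 325), against 617 to 857 (median 702), and its levels in metastasis replicate 2 were nearly equal, at 776 and 783. Gadd45b, a stress-induced regulator of MAP kinase signalling, had 92.6 to 276 (median 178), against 236 to 492 (median 356), with a log2 change of -1.02 (SE 0.17, adjusted p = 0.00495). Ccrl2, an atypical chemoattractant receptor, Gem, a small GTP-binding protein, Fam46c, a poly(A) polymerase, and Otud1, a deubiquitinase, had log2 changes of -1.04, -1.16, -1.17 and -1.24. These calls depended on single libraries: of the 6 fits that leave out 1 library, Gadd45b passed in 5, Tlr2 and Gem in 4, Ccrl2 in 3, Il1a and Fam46c in 2 and Otud1 in 1. Otud1 rested on 128 UMIs in low barcodes and also lost its call with markers at 0.2% or more of UMIs (log2 change -0.79, adjusted p = 0.112).

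**Figure D3:**
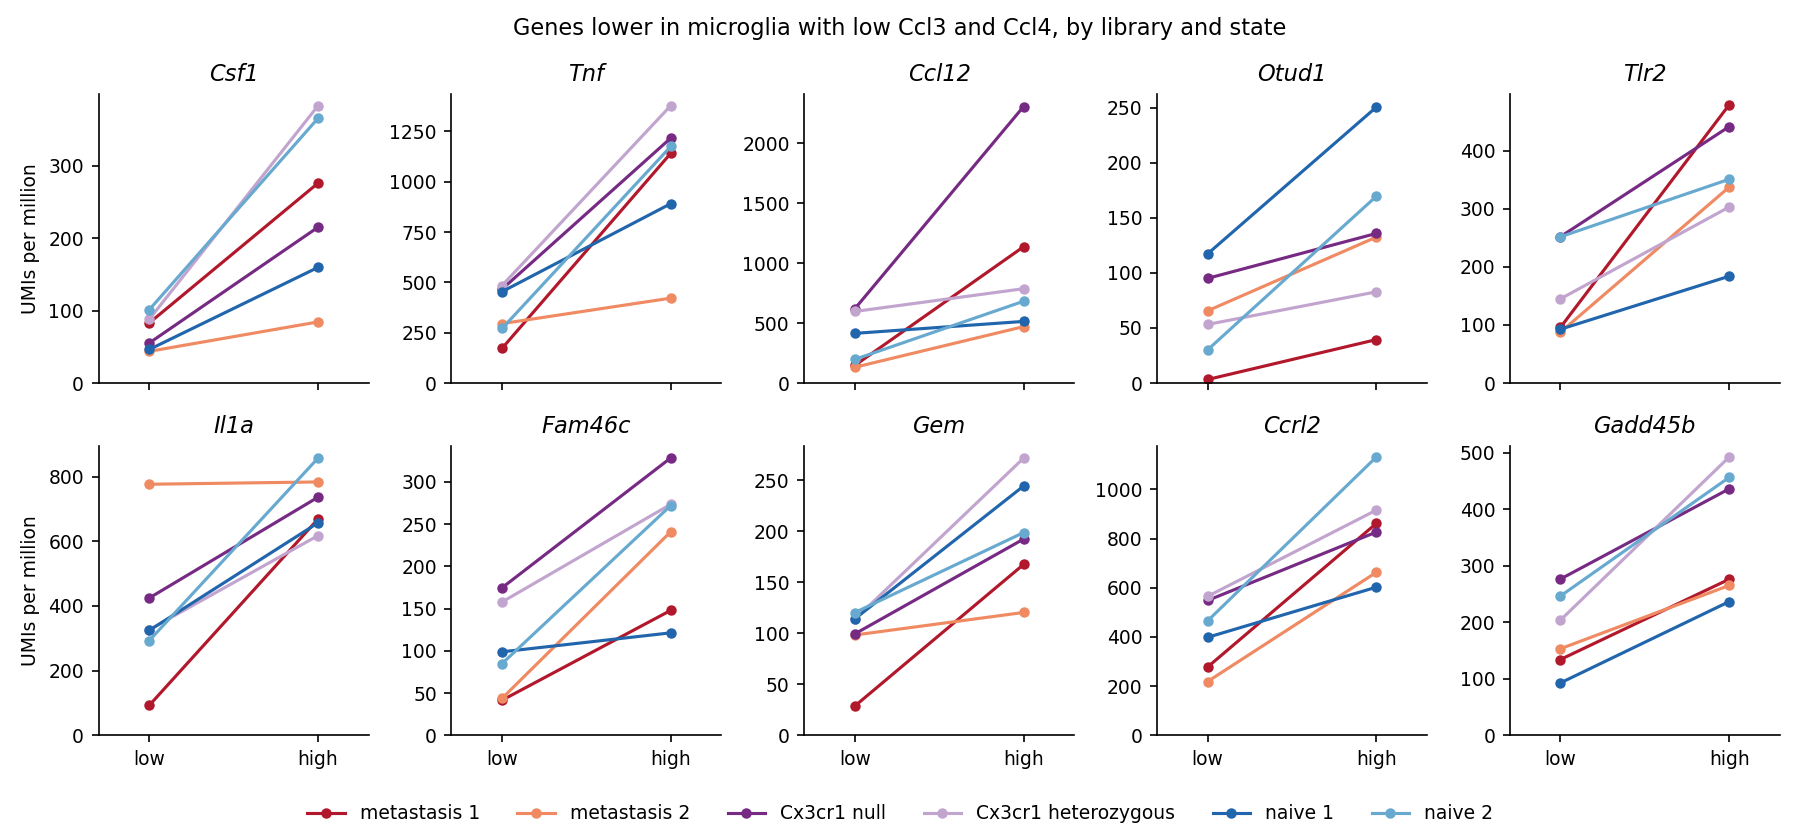
CPM of the 10 named lower genes in low (left) and chemokine-high (right) barcodes of each library, with Ccl3 and Ccl4 left out of the totals. Lines join the 2 states of a library, and each gene is lower in the low state in all 6 libraries.

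Lists of genes showed where these changes gathered. Over all 7448 genes tested, 0.295% were called lower and 0.738% higher, with a median log2 change of 0.01. Of 18 genes in a list of inflammatory cytokines and other genes of activated macrophages, 16 were tested and 5 fell, with a list median of -0.64 on the log2 scale. These were the cytokines Tnf, Il1a, Il10 and Csf1, and Plek, the signalling protein pleckstrin. Il10 rested on 11 UMIs in low barcodes and 79 in chemokine-high barcodes, 62.0% of the 79 in 3 barcodes. Of 18 NF-kB feedback and target genes, all tested, 4 fell (Nfkbiz, Nfkbid, Cd83 and Gadd45b), with a median of -0.55. Nfkbiz and Nfkbid encode nuclear regulators of NF-kB, and Cd83 is a surface protein of activated antigen-presenting cells. Nfkbia, the inhibitor of NF-kB, had 1771 to 5764 CPM in low barcodes and 3072 to 6776 in chemokine-high barcodes, lower in all 6 libraries but short of the threshold (adjusted p = 0.203). These lists and their members were chosen with earlier results of these data known. Barcodes low in markers or with vascular UMIs were kept in these list medians, and their part is not separated here.

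Immediate-early genes, the first transcribed after a stimulus, leaned the same way but mostly missed the test. All 21 tested had a log2 change below 0, with a median of -0.56 against 0.01 over all genes tested. Of these, 1 passed (Id2, an inhibitor of DNA-binding factors, at -0.94, adjusted p = 0.0248). The list median also took in barcodes low in markers or with vascular UMIs, whose part is not separated here. Atf3, a stress-induced transcription factor, had 983 to 5820 CPM in low barcodes (median 2178), against 2842 to 7825 in chemokine-high barcodes (median 4587), and its adjusted p was 0.0624. Jun and Fos, subunits of the AP-1 factor, had log2 changes of -0.59 and -0.73 with adjusted p of 0.469 and 0.318. In Cx3cr1-/- the list's median low-over-high log2 ratio was 0.05, against -1.61 in metastasis replicate 1, so libraries differed widely.

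Among the 13 tested of 15 other chemokine genes, Ccl12 and Ccrl2 fell and Cxcl9 rose. Ccl2, the main monocyte attractant, had 97.2 to 201 CPM in low barcodes, against 99.4 to 1444 in chemokine-high barcodes (adjusted p = 0.0899). Cxcl10, an interferon-induced chemokine, had 21.9 to 290, against 0 to 2259 (adjusted p = 0.203). Cxcl9, the interferon gamma-induced ligand of Cxcr3, went the other way. It had 3.19 and 0 CPM in low barcodes of metastasis, 172 in Cx3cr1-/-, 75.2 in Cx3cr1+/-, and 49.4 and 68.4 in naive, against 7.89 and 0, 11.3, 12.5, and 4.04 and 2.92 in chemokine-high barcodes. The log2 change was 2.84 (SE 0.47, adjusted p = 0.00495), and 3 barcodes held 54.0% of its 161 UMIs in the state. Cxcl9 and the list members given here beyond the most abundant of each list were named after their values were seen.

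The promoters of Csf1 and Tnf, with the smallest adjusted p among the lower genes, and of Ccl3, a gene of the rule, are printed to show what stands before genes that were low together. Sequences are RefSeq's, build GRCm38.p6, from 250 bases before to 50 bases after the annotated start, 5′ to 3′ on the gene's strand. Capitals mark a match to the kappaB motif bound by NF-kB, searched as GGG, any 2 bases, then TTTCC, or to its reverse complement. Csf1 lies on the minus strand at chr3:107760420-107760719, Tnf on the minus strand at chr17:35201958-35202257 and Ccl3 on the minus strand at chr11:83649329-83649628.
Csf1: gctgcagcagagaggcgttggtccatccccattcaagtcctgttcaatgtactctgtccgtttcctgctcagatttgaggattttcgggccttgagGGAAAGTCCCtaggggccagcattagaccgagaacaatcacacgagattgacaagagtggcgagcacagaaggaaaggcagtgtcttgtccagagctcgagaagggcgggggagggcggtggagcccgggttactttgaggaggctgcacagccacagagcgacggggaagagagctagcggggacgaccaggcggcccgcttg
Tnf: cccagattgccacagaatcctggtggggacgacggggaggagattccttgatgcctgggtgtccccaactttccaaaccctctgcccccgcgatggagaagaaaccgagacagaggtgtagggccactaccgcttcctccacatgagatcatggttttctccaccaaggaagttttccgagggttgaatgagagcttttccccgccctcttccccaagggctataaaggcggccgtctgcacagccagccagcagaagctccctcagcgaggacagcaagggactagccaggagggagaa
Ccl3: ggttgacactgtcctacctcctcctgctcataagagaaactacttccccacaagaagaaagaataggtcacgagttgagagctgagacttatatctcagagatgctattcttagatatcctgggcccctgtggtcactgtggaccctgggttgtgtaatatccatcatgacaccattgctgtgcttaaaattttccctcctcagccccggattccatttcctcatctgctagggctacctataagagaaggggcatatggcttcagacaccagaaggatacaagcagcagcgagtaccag
Csf1 had 1 match, beginning 154 bases before the start. Of the 22 lower genes 16 had a promoter entry, and 1 of these 16 (6.25%) had a match, against 1.89% of 27025 genes. TGANTCA, the AP-1 motif, matched in 1 of the 16, Il1a, against 8.97% of genes. No window of the other genes held these letters, which says nothing of other spellings or of sites elsewhere.

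The NF-kB list followed the Ccl3 plus Ccl4 share below the limit in all 6 libraries, and single genes did so less evenly. When microglial barcodes were binned by that share, the summed NF-kB list in metastasis replicate 1 had 3181, 5476 and 9260 CPM in barcodes under 0.1%, from 0.1% to 0.25% and from 0.25% to 0.5%. The same bins gave 7425, 12012 and 12439 in metastasis replicate 2, 13170, 16095 and 18704 in naive replicate 1, and 7468, 10916 and 17023 in naive replicate 2. The list was thus lowest in the lowest bin of each of these 4 libraries, as it was in Cx3cr1-/- at 10044 and Cx3cr1+/- at 6789. Tnf had 81.1, 171 and 340 CPM in the 3 bins of metastasis replicate 1, and 300.0, 452 and 481 in those of naive replicate 1. In metastasis replicate 2 it had 143, 232 and 565 in these bins but 212 in the bin just above the limit, from 4 to 14 UMIs a bin. Ccl12 in naive replicate 1 had 450.0, 710 and 268 below the limit and 310 just above it, and Il1a in metastasis replicate 2 was highest, at 1575, just below the limit. The immediate-early list of Cx3cr1-/- had 32270, 32487 and 33087 below the limit and 33343 just above it. Homeostatic genes, those that mark undisturbed microglia, differed between libraries: the list was lower in each successive bin of metastasis replicate 2, with 105134 in the lowest bin and 62628 in the highest (2% or more), and it had 92524 and 75363 in those bins of naive replicate 1. In metastasis replicate 1 it had 4463 and 27520, and in naive replicate 2 it had 22793 and 60518. It had 47701 and 59667 in Cx3cr1-/- and 31656 and 60035 in Cx3cr1+/-. Below the limit it had 4463, 7785 and 11672 in the 3 bins of metastasis replicate 1. In those of naive replicate 2 it had 22793, 44287 and 54396, so it rose with the NF-kB list in both. The 8 markers had 341, 604 and 1672 in those bins of metastasis replicate 1. Barcodes low in markers or with vascular UMIs were kept in the bins, and an NF-kB rise apart from these genes was not tested. The lowest bin held 9 to 45 barcodes per library and the highest 5 to 52, and these bins have no test.

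**Figure D4:**
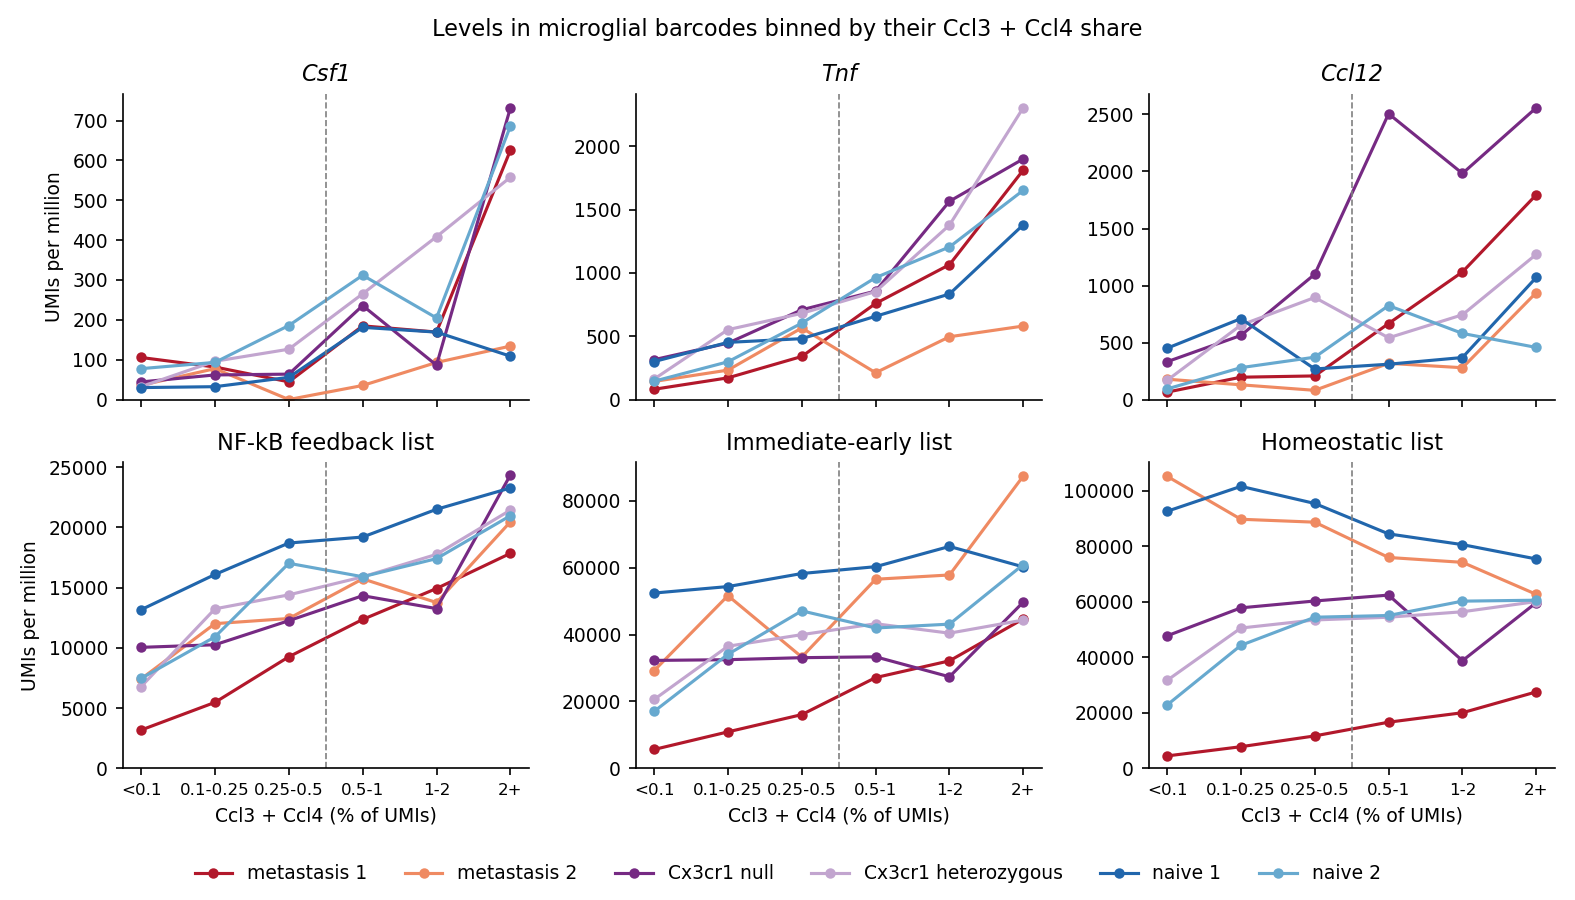
Summed CPM of 3 genes and 3 gene lists in microglial barcodes of each library, by the barcode's Ccl3 plus Ccl4 share, with the 0.5% limit as a dashed line. The NF-kB list is lowest in the lowest bin of every library. The homeostatic list ends lower at the right in metastasis replicate 2 and naive replicate 1. It ends higher in metastasis replicate 1, naive replicate 2, Cx3cr1-/- and Cx3cr1+/-.

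Genes of blood vessels had the widest rises among the gene lists. Of 7 endothelial markers, all tested, 5 rose (Cldn5, Flt1, Ly6c1, Itm2a and Slco1a4), with a list median of 2.42, and of 7 mural markers 5 were tested and 2 rose (Rgs5 and Vtn), with a median of 2.23. Cldn5, the tight-junction protein of brain endothelium, had 0 to 876 CPM in low barcodes (median 26.5), against 0 to 17.0 in chemokine-high barcodes (median 7.03), and 3 low barcodes held 78.4% of its 431 UMIs. Sptbn1, a spectrin of the membrane skeleton, was the only higher gene of those the naming rule reached, at 15.4 to 408, against 0 to 57.8, with a log2 change of 2.04 (SE 0.35, adjusted p = 0.00526). Without the vascular barcodes its log2 change was 0.73 (adjusted p = 0.756), and with markers held to at least 0.2% of UMIs it was 0.77 (adjusted p = 0.888).

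With markers at 0.2% or more of UMIs, which left 500 low and 580 chemokine-high barcodes, the higher calls fell to 7 (0.107%) and the lower calls stood at 25 (0.383%) of 6529 genes. Of the original calls, 16 lower and 4 higher genes passed again. Csf1 had a log2 change of -1.73 and Tnf of -1.26 in those barcodes. Cxcl10 (-1.52, adjusted p = 3.39e-05), Ccl2 (-1.19, adjusted p = 0.00805), Atf3 (-0.70, adjusted p = 0.00926) and the interferon-induced Isg15 (-1.35) joined the lower genes. Some of these levels rested on few barcodes. Over all chemokine-high barcodes, 3 held 42.6% of the 1055 Cxcl10 UMIs, 36.1% of the 869 of Ccl2 and 33.9% of the 257 of Isg15. Higher genes with that minimum included Cxcl9 (2.31, adjusted p = 0.0208), Ccl5, a chemokine of cytotoxic lymphocytes (1.23, adjusted p = 0.00449), and Gzma, a granzyme of natural killer cells (3.03, adjusted p = 0.00132), beside the mural genes Rgs5 and Vtn. Gzma had 56 UMIs in the whole state, 64.3% of them in 3 barcodes, and Ccl5 had 521, 42.2% of them in 3 barcodes. Without the vascular barcodes 7 genes were lower and 4 higher, and Csf1, Tnf, Ccl12, Tlr2, Gem and Gadd45b were among the 7. Of the 55 higher genes of the main test, 2 were among the 4.

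No homeostatic gene passed the test between the states, of 20 tested and 22 listed. The list median was -0.30 on the log2 scale, or 0.04 with the marker minimum. Cx3cr1 had a log2 change of -0.30 (SE 0.26, adjusted p = 0.775), and its level was lower in the low state in 3 libraries and higher in 3. By library the list's median low-over-high log2 ratio was -1.59 and 0.28 in metastasis, 0.04 in Cx3cr1-/-, -0.24 in Cx3cr1+/-, and 0.10 and -0.73 in naive.

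Genes of other lists tied to resident microglia also missed the threshold. All 11 microglial transcription factor genes and all 13 tested complement and Fc receptor genes had log2 changes below 0, but none passed. Their medians were -0.42 and -0.39, against 0.01 over all genes tested. With the marker minimum they were -0.16 and -0.11, against -0.02. C1qa, a chain of complement C1q, had 172 to 5334 CPM in low barcodes and 694 to 5387 in chemokine-high barcodes, and both lowest values came from metastasis replicate 1. None of the disease-associated, lysosomal, lipid-handling, heat shock, cell cycle or translation factor genes tested passed either, with medians of -0.11, -0.19, 0.06, 0.14, 0.10 and 0.19.

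MHC class II genes, which present antigen to helper T cells, were spread unevenly. The 7 genes summed to 2712 and 2263 CPM in low barcodes of metastasis, 6963 in Cx3cr1-/-, 14744 in Cx3cr1+/-, and 2445 and 13110 in naive. In chemokine-high barcodes they summed to 3369 and 4024, 1880, 3553, and 5527 and 4501. Low barcodes therefore had more in Cx3cr1-/-, Cx3cr1+/- and naive replicate 2 and less in the other 3 libraries, and none of 6 genes tested passed (list median 0.55, H2-Aa adjusted p = 0.646). In low barcodes, 3 barcodes per library held 38.8% to 53.1% of these UMIs. Monocyte and macrophage markers moved with them: they summed to 1936 in Cx3cr1-/-, 1411 in Cx3cr1+/- and 1431 in naive replicate 2, against 753, 859 and 389 in chemokine-high barcodes, and their part was not tested.

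The spread among low barcodes of a library was measured after thinning to 800 UMIs. The homeostatic list took a median of 9.06% of UMIs in metastasis replicate 2 (10th to 90th percentile 6.04 to 13.9) and 10.6% in naive replicate 1 (6.12 to 15.2). It took 6.38% in Cx3cr1-/- (1.38 to 9.12), 5.50% in Cx3cr1+/- (1.5 to 8.16) and 5.12% in naive replicate 2 (1.38 to 8.38), so the last 3 libraries reached lower at the bottom. In metastasis replicate 1 the median was 1.00% (0.50 to 2.00), below the 10th percentile of every other library. Immediate-early genes took 1.38% and 3.19% in metastasis, 3.12% in Cx3cr1-/-, 3.38% in Cx3cr1+/-, and 3.75% and 3.38% in naive, with a highest barcode of 18.0% in naive replicate 1. MHC class II genes were at a median of 0% to 0.25% in each library, while the 90th percentile reached 3.5% in Cx3cr1+/- and 3.75% in naive replicate 2, against 0.375% to 0.875% elsewhere, and the highest single barcode was at 14.2%.

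Between metastasis and naive, no gene passed the test in low barcodes, where 1 of the 2 metastasis libraries is replicate 1, whose members went against the microglia name. The question was whether low barcodes themselves differ in brains that bear metastases, and edgeR's quasi-likelihood test on sums of 2 metastasis and 2 naive libraries called 0 of 5532 genes (0%), with 102 at an unadjusted p under 0.05, and DESeq2 also called 0. Without naive replicate 1 the test called 29 genes, all lower in metastasis. In simulated sums this edgeR test recovered 10.99% of 2-fold changes, so most changes of that size would be missed at the spread simulated. That spread between libraries was set, not estimated from these libraries, so recovery in these data was not measured. The genes nearest to passing all had an adjusted p of 0.998. Pcna-ps2, a pseudogene of the replication clamp whose reads may belong to its parent, had 140 and 153 CPM in metastasis and 6.17 and 21.9 in naive. Smn1, of the spliceosome assembly complex, had 128 and 120 in metastasis and 12.3 and 21.9 in naive. On the lower side, Hspb1, a small heat shock protein, and Cp, the copper protein ceruloplasmin, had 0 UMIs in both metastasis libraries, against 15 and 36 and against 13 and 52 in naive. Cxcl9 had 1 and 0 UMIs in metastasis, against 16 and 25 in naive.

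The replicates disagreed in sign for most lists. These ratios follow the sample labels, and the names of the deposited tables put these 4 libraries under the opposite group. The median log2 ratio of metastasis over naive, with 10 CPM added, was -3.22 for homeostatic genes in replicate 1 and 0.98 in replicate 2. It was 1.20 and -2.90 for type I interferon genes, -2.06 and 0.40 for immediate-early genes, -2.36 and 0.32 for complement and Fc receptor genes, and 1.66 and -0.61 for cell cycle genes. Heat shock genes stood on the same side in both, at 0.58 and 0.46, as did chemokines, at -0.26 and -0.96, and MHC class I genes, at -0.23 and -1.05. The 5 monocyte and macrophage markers tested stood at 2.45 in replicate 1 and -4.37 in replicate 2. All genes tested had medians of 0.23 and -0.03. With the marker minimum, replicate 1 gave -2.73 for homeostatic, 1.86 for type I interferon and 0.36 for cell cycle genes, and 0.85 for chemokines, which then also differed in sign. In replicate 2 the same minimum gave 0.35 for homeostatic, -1.45 for type I interferon, 0.01 for immediate-early and -0.10 for cell cycle genes. It gave -0.11 for complement and Fc receptor genes, now on the same side as the -1.47 of replicate 1. Each replicate pair was read on its own sequencer, so replicate and sequencer cannot be told apart.

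**Figure D5:**
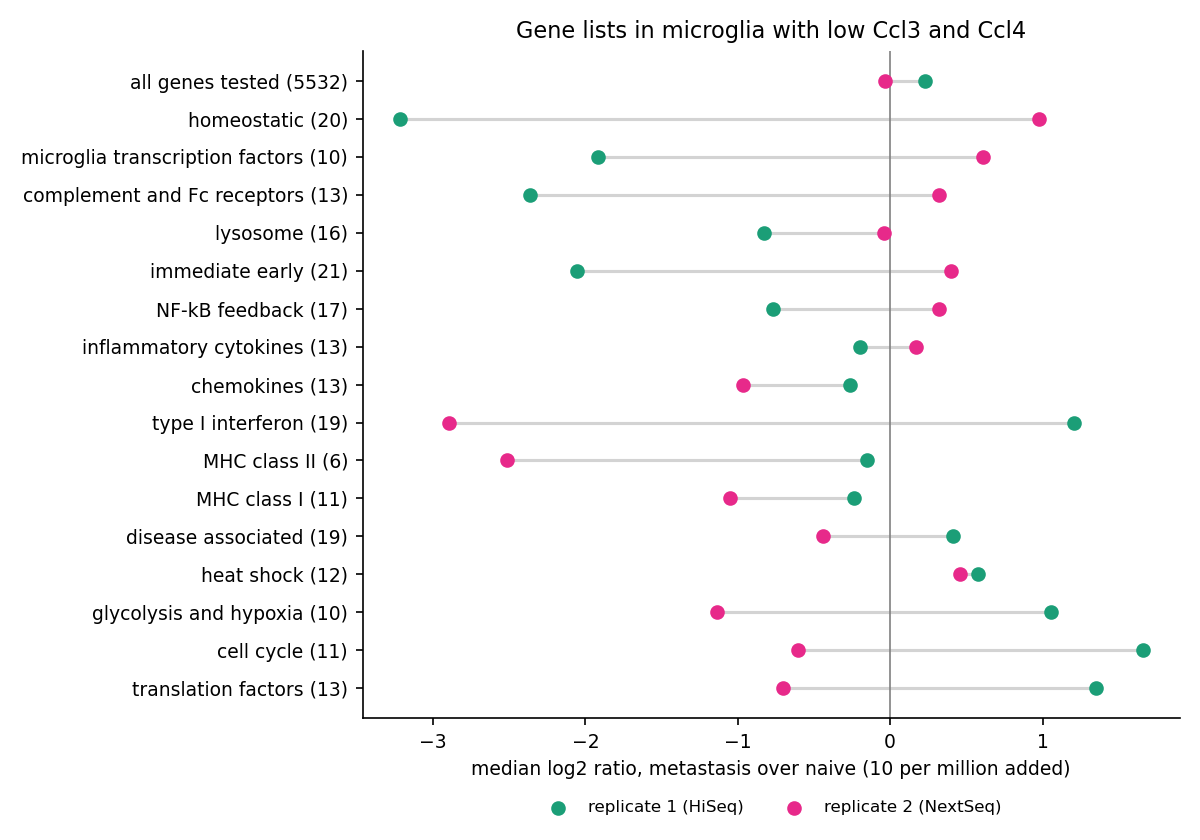
Median log2 ratio of metastasis over naive in low barcodes for each gene list (number of genes tested in brackets), by replicate. Homeostatic genes are at -3.22 in replicate 1 and 0.98 in replicate 2, and heat shock, chemokine, MHC class I, MHC class II and lysosomal genes are the plotted lists on the same side of 0 in both.

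Whether the low-minus-high difference itself changed with metastasis was tested as an interaction. No gene of 6756 passed (0%), with 266 at an unadjusted p under 0.05, and DESeq2 called 1. In simulated sums the edgeR test recovered 1.01% of 2-fold and 24.47% of 4-fold changes, so most such changes would be missed at the set spread. The edgeR test called 26 without naive replicate 1 and 4 without metastasis replicate 2. Sparcl1, a matrix protein of endothelium and astrocytes, had the smallest p (interaction log2 value -7.19, SE 1.17, adjusted p = 0.513). In low barcodes alone it had 3.19 and 10.9 CPM in metastasis and 24.7 and 755 in naive. Ttr, the transthyretin of choroid plexus, had an interaction log2 value of -3.17 (SE 0.59, adjusted p = 0.513). Its low barcodes alone had 118 and 273 CPM in metastasis and 1408 and 2293 in naive. Tnf and Csf1 had interaction log2 values of -0.21 (SE 0.71) and 0.30 (SE 0.56), with adjusted p of 0.98 and 0.97.

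Cx3cr1-/- and Cx3cr1+/- low microglia were compared without a test, since each genotype had 1 library. Among 3816 genes with a combined count of 50 UMIs or more, 51 were more than 2-fold higher (1.34%) and 97 more than 2-fold lower (2.54%) in Cx3cr1-/-. The counting interval left out equality for 348 higher (9.12%) and 351 lower genes (9.2%). Cx3cr1 had 21 UMIs in Cx3cr1-/- and 641 in Cx3cr1+/- (log2 ratio -4.66, counting 95% interval -5.36 to -4.04). Type I interferon genes were mostly higher in Cx3cr1-/-: 19 of 21 had a ratio above 1, with a median log2 of 0.66, and 6 of the 21 passed 2-fold, against a median of -0.05 over all genes. Isg15, an interferon-induced ubiquitin-like protein, had 168 CPM in Cx3cr1-/- and 49.5 in Cx3cr1+/-. Chemokine-high barcodes of the same libraries had 374 and 42.2. MHC class II genes stood the other way in low barcodes, with 5 of 6 below 1 and a median log2 ratio of -1.07. With the marker minimum the type I interferon and MHC class II medians were 0.74 and -0.76. Without the vascular barcodes they were 0.47 and -0.67.

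Several of the widest ratios rested on a few barcodes. S100a8 and S100a9, calcium-binding proteins of neutrophils, had 456 and 511 UMIs in Cx3cr1-/- against 41 and 36 in Cx3cr1+/-, and 3 barcodes held 97.1% and 98.6% of those in Cx3cr1-/-. The neutrophil genes Retnlg and Ngp were held whole by 2 barcodes there. Npy and Fabp7, with 0 UMIs in Cx3cr1-/- and 74 and 61 in Cx3cr1+/-, came from 1 barcode. Apod and Ctla2a were also lower in Cx3cr1-/-, at 7 and 18 UMIs against 325 and 198, and the endothelial list had a median of -1.31. Slfn4, an interferon-induced gene of myeloid cells, had 70 UMIs in 19 barcodes of Cx3cr1-/- and 8 in 6 of Cx3cr1+/-, and its log2 ratio of 3.40 was 3.27 without the 3 barcodes that held most. Pik3ip1, an inhibitor of PI3 kinase, had 7 and 59 UMIs in Cx3cr1-/- and Cx3cr1+/- (log2 ratio -2.81, counting interval -4.18 to -1.67), spread over 7 and 31 barcodes. Homeostatic genes had a median log2 ratio of 0.24, with 16 of 20 above 0 and none past 2-fold upwards. Their median was 0.09 with the marker minimum and 0.13 without the vascular barcodes.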

How the data were processed

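Drop-seq UMI count tables of 6 libraries were deposited by the authors as whole-number counts per gene and barcode. The submitters' processing notes name STAR, Seurat and the mm10 build, with no role or version. Samples were grouped by their labels. Members and gene lists were chosen with earlier results of these data known. Barcodes were filtered and classed as given in the report. Doublets were not removed, and leaving out the 5% highest Scrublet scores (scanpy 1.11.5) was an alternative.

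Counts were summed per library and state without Ccl3 and Ccl4. The 8 marker genes and mitochondrial genes stayed in the totals but were not tested. The sums were tested with edgeR 4.0.16 (R 4.3.3; TMM scaling, filterByExpr, quasi-likelihood test, Benjamini-Hochberg adjustment at 0.05), and each SE is the log2 change divided by the square root of its F. DESeq2 1.42.0 was an alternative. Low and chemokine-high sums were compared with the library as a block, because both come from the same suspension. Metastasis and naive were compared without a block: their replicate numbers share only a sequencer. Cx3cr1-/- and Cx3cr1+/- were compared by ratios of UMIs with exact 95% counting intervals, for genes with at least 50 UMIs. Log2 ratios by library or replicate add 10 CPM. A count of 0 was set to a floor of 3 UMIs.

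Named genes were, per comparison, up to 10 in each direction with the largest log2 change among those past the threshold with an average log2 CPM of at least 6 and the same direction in every library. Where none passed, the 5 with the smallest p in each direction were used, and up to 8 in each direction by ratio for the Cx3cr1 genotypes. The most abundant members of each list were added. The fits were tested on simulated sums with known changes. Their spread between libraries was set and not estimated from these data, so the rates may not hold here. The state comparison recovered 48.98% of 2-fold and 96.70% of 4-fold changes. Metastasis against naive recovered 10.99% and 70.45%, and the interaction 1.01% and 24.47%. False calls numbered 8 in the state comparison, 2 in metastasis against naive and 1 in the interaction.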

Additional observations from a re-analysis of the deposited data

How the results depend on the processing

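The 77 genes called between low and chemokine-high microglia became 45 with DESeq2, 239 with no filter on low counts, 40 with under 5% mitochondrial UMIs, 167 in the NextSeq libraries and 5 in the HiSeq libraries. Alternatives chosen after seeing the data gave 32 with markers at least 0.2% of UMIs, 21 with that minimum and no metastasis replicate 1, and 11 without barcodes of 3 or more vascular UMIs. Leaving out each library gave 8 to 130, and with no replicate block, that is without the library term, 0 (115 at an unadjusted p under 0.05). The other alternatives stayed within 1.5 times in number, at 56 to 111, but not always in the genes called. Thinning to 800 UMIs, with 2433 genes tested, called 24 higher and 32 lower genes, of which 6 and 12 were among the 77. Of the named genes' values in that comparison, 186 kept their side of the threshold and 67 lost it with the same direction. Metastasis against naive gave 80 with no filter and 0 to 29 when 1 library was left out (29 without naive replicate 1). The replicate block gave 0, as did a crossed pairing added after seeing the data, because deviations of same-numbered libraries correlated at -0.438 over 5550 genes. The interaction gave 1 with DESeq2, 19 with no filter, 1 without the highest Scrublet scores, 1 with the marker minimum and 0 to 26 with 1 library left out (26 without naive replicate 1), and with 1 library left out Ube2c ranged from -0.018 (reversed, without naive replicate 2) to 5.47. At least 5 marker UMIs could not be run for these 2 comparisons, since metastasis replicate 1 kept too few low barcodes. Between Cx3cr1-/- and Cx3cr1+/-, genes past 2-fold numbered 604 with a minimum of 20 UMIs and 96 without vascular barcodes. Without the 3 barcodes that held most, the log2 ratio reversed to -1.68 for S100a9 and -0.94 for S100a8, while Retnlg, Ngp, Npy and Fabp7 were left with 3 or fewer UMIs in both libraries and gave no ratio. The cause was not tested except where fewer samples or genes entered.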
